A study of Mus musculus with 6 samples.

Results

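Asns, Glul, Glud1, Got1, Got2, Gpt2, Aldh18a1, Pycr1 and Oat encode enzymes that make or interconvert asparagine, glutamine, glutamate, aspartate, alanine and proline. They were chosen by name as a pathway group, with earlier results of these data known. All 9 were found among the 46078 genes of the count tables. RNA from growth plate cartilage of the distal femur and proximal tibia of E18.5 mice was sequenced in bulk, with 3 control and 3 Idh1 mutant libraries. The age field of the labels gives E18.5, as do the study's methods, while the labels' text on breeding gives 2 months. The mutants carried Col2a1-Cre and an Idh1 LSL/+ allele, in which a lox-stop-lox cassette blocks a mutant Idh1 until Cre removes it, so that mutant Idh1 is expected in cells with Col2a1 promoter activity. The controls carried Idh1 LSL/+ without Cre, and both groups therefore held the targeted allele. An effect of the Cre transgene and an effect of mutant Idh1 cannot be told apart, because all mutants and no controls carried Cre.

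Glutamine synthetase (Glul) joins ammonia to glutamate, and asparagine synthetase (Asns) moves the amide group of glutamine onto aspartate. Glutamate dehydrogenase (Glud1) and the transaminases (Got1, Got2 and Gpt2) interconvert glutamate and 2-oxoglutarate, the metabolite that normal Idh1 makes from isocitrate. Aldh18a1 and Pycr1 build proline from glutamate, and Oat links ornithine to the same intermediate. Proline is a main residue of collagen, the protein that growth plate chondrocytes secrete in large amounts. Asns is also a textbook target of Atf4, the transcription factor that is translated when amino acids are scarce, and Atf4 with its partners binds C/EBP-ATF response elements.

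Promoter sequence is shown for the 3 of the 9 genes whose window held the letters TGATGNAA, the core of such an element, on either strand. The windows run from 250 bases before to 50 bases after the RefSeq start of each gene in build GRCm38.p6, and are written along the gene's strand with the matched letters in capitals. Asns lies at chr6:7693160-7693459, Pycr1 at chr11:120643699-120643998 and Got1 at chr19:43524556-43524855, each on the reverse strand.
Asns: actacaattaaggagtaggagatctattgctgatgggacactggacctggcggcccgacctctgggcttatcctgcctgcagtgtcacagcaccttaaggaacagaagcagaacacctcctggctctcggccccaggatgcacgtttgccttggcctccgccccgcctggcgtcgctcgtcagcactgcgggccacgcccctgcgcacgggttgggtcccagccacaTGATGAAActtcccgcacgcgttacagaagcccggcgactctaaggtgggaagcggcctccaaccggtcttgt
Pycr1: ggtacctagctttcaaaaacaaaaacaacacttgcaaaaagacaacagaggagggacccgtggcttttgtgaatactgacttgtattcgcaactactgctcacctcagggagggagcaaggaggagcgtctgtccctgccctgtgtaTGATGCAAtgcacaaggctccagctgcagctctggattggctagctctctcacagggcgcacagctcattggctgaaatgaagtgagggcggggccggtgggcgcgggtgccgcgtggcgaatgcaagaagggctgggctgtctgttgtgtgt
Got1: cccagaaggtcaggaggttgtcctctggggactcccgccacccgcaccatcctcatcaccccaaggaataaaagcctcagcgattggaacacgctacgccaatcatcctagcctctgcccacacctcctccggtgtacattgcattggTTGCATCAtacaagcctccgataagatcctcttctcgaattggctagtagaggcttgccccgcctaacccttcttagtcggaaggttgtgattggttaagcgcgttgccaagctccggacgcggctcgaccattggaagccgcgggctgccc
The match began 23 bases before the start in Asns, as TGATGAAA, and 103 bases before it in Pycr1, as TGATGCAA. In Got1 it began 102 bases before the start and read TTGCATCA, the same core on the other strand. Of all 32851 promoter windows of this length, 3.97% held the letters. CACGTG, which is its own reverse complement, was found in 1 of the 9 windows (Aldh18a1) and in 7.15% of all windows, and CCAAT or its reverse complement ATTGG in 4 of the 9 and in 37.4% of all. No match overlapped a match of another of these motifs. A match is a description of the letters, and binding was not measured here. The motifs were chosen after the sequences had been seen, so that these shares carry no test.

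The libraries held 23445687 to 30415773 counted reads. The 9 enzymes were well covered, with 654 to 7041 counts per gene and library. Levels are given in CPM, counts per 1000000 counted reads scaled with edgeR's TMM factors, and differences as log2 fold changes of mutants over controls with edgeR's quasi-likelihood test and Benjamini-Hochberg adjustment over the 16813 genes that passed the expression filter. All 9 enzymes passed it. Idh1 itself had 37.2, 39.1 and 65.3 CPM across controls against 47.5, 47.7 and 56.2 CPM across mutants, and its log2 fold change was 0.10 (adjusted p = 0.940, edgeR). Mutant 3 stood apart in Xist, with 26356 counts against 0 to 13 in the other libraries. Genes of the Y chromosome had 512 counts in mutant 3, against 4193 to 5829 in the other libraries. Mutant 3 thus differed from all other libraries in sex-linked genes, and the part of this in its other levels was not tested.
The piece held RNA of several tissues. All 6 chondrocyte markers were present in every library, with a summed level of 3109 to 6252 CPM in controls and 4919 to 6974 CPM in mutants. The 5 osteoblast markers summed to 33790 to 47910 CPM over the 6 libraries. This sum was nearly all Col1a1 and says little of the other osteoblast markers. The 5 skeletal muscle markers summed to 11076 to 17181 CPM. A level is thus a mean over all cells of the piece, and in such bulk samples fewer cells of a type and less RNA per cell cannot be told apart.

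Asns had the largest difference between the genotypes among the 9. It rose in the mutants by 0.83 on the log2 scale, about 1.78 times the control level, and it was the only 1 of the 9 past the threshold. None of the others was past it. Of the 9 log2 fold changes 8 were above 0, beside 8293 of all 16813 genes tested. The signs of Got1, Got2 and Oat turned with some single libraries left out. The proline synthesis genes Pycr1 and Aldh18a1 and the alanine transaminase gene Gpt2 came next, at 0.21 to 0.34, while Oat, Got1 and Got2 lay near 0.

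**Figure D1:**
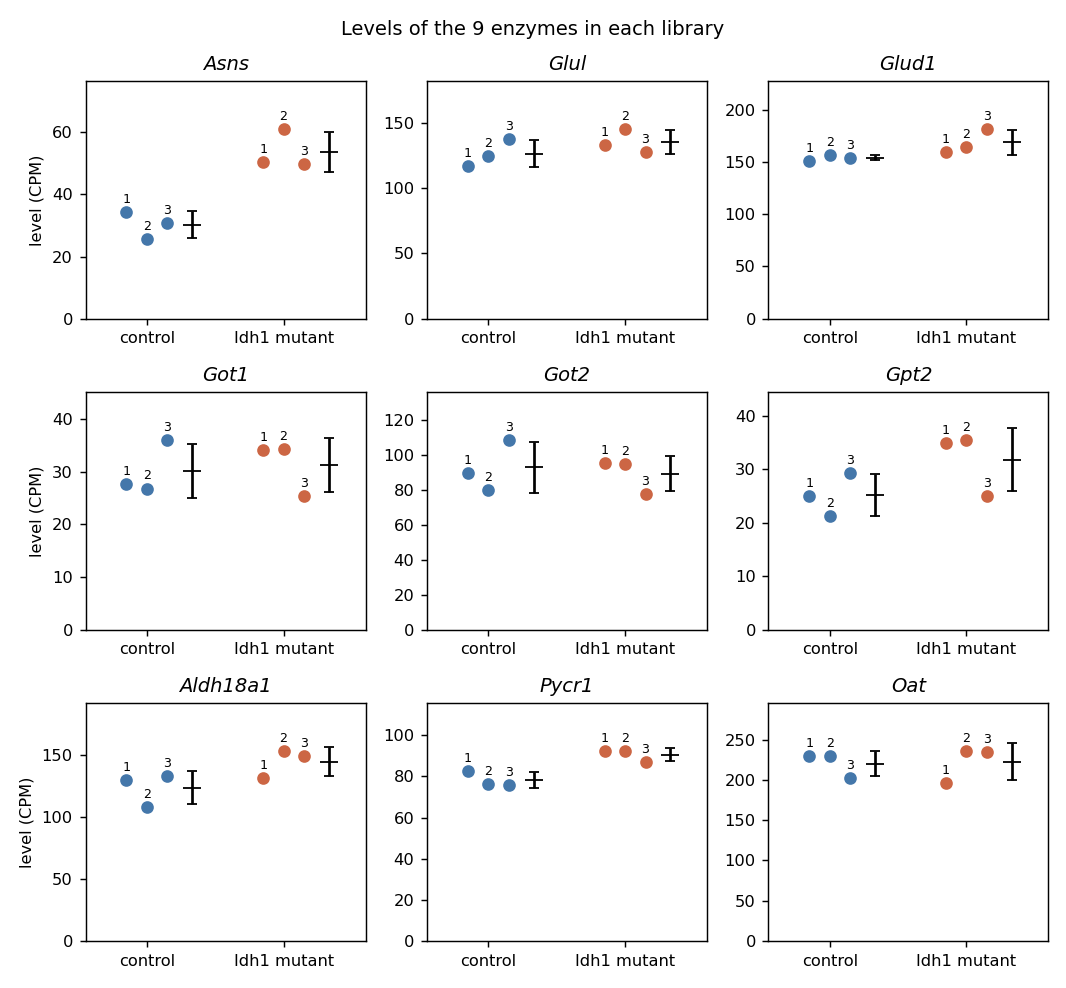
Level of each enzyme in CPM (vertical axes, starting at 0) in the 3 control (blue) and 3 Idh1 mutant (orange) libraries, numbered by replicate, with the mean and SD of each group in black. The Asns points are separated by the widest gap, from 34.3 CPM in the highest control to 49.6 CPM in the lowest mutant, while the points of Got1, Got2 and Oat overlap.

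Asns (ENSMUSG00000029752, chromosome 6 from 7675169 to 7693254 of GRCm38, reverse strand) makes asparagine in the cytosol. It measured 34.3, 25.7 and 30.7 CPM across controls 1, 2 and 3 against 50.3, 61.2 and 49.6 CPM across mutants 1, 2 and 3. Every mutant was above every control, with mutant 2 the highest and control 2 the lowest library. These levels rested on 968, 788 and 851 counts across controls, against 1189, 1508 and 1443 across mutants. The group means were 30.3 ± 4.35 CPM (SD, n = 3) and 53.7 ± 6.49 CPM (SD, n = 3). The log2 fold change came to 0.83 (standard error, SE, 0.12, 95% interval 0.55 to 1.11, adjusted p = 0.0390, edgeR), which corresponds to a 1.47-fold to 2.15-fold higher level. By p it ranked 28 of the 16813 genes tested, and 1.33% of them had a higher log2 fold change. No exon of another annotated gene overlapped its exons.
The call rested on the full set of libraries. When any single library was left out, the log2 fold change stayed between 0.73 and 0.93, and the adjusted p from edgeR lay between 0.0636 (without control 1) and 0.188 (without mutant 2), past the threshold in 0 of the 6 fits. Without mutant 3 it was 0.88 (adjusted p = 0.108, edgeR). The call also ended with limma-voom, at an adjusted p of 0.05003 that lay just above the threshold.

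**Figure D2:**
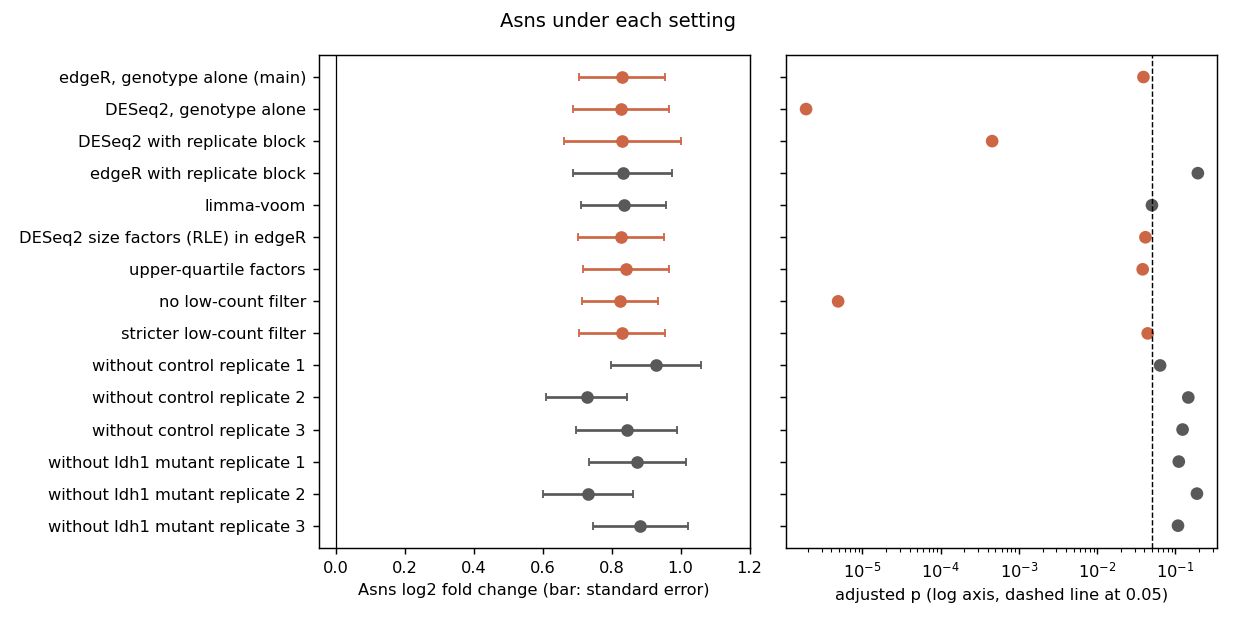
Log2 fold change of Asns with its standard error (left) and adjusted p on a log axis (right) in the reported fit, 8 other settings and the 6 fits that each left out a library, with values under 0.05 in orange. The fold change stays between 0.73 and 0.93 throughout, while the adjusted p runs from 1.90e-06 to 0.193 and crosses the dashed line at 0.05.

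Over all genes tested, 0.190% were past the threshold in either direction and 0.0535% were past it and higher in the mutants, against 1 of the 9 enzymes. The median log2 fold change of the 9 was 0.13, beside a median of -0.0026 over all genes tested. The groups did not overlap in 3 of the 9, Asns, Pycr1 and Glud1, each with every mutant above every control, while 6.83% of all genes tested were separated in that direction and 7.62% in the other. At an unadjusted p under 0.05 there were 2 enzymes, Asns and Pycr1, beside 1452 of the 16813 genes tested (8.64%). Because the 9 were chosen with earlier results of these data known, these shares describe them and carry no test.

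**Figure D3:**
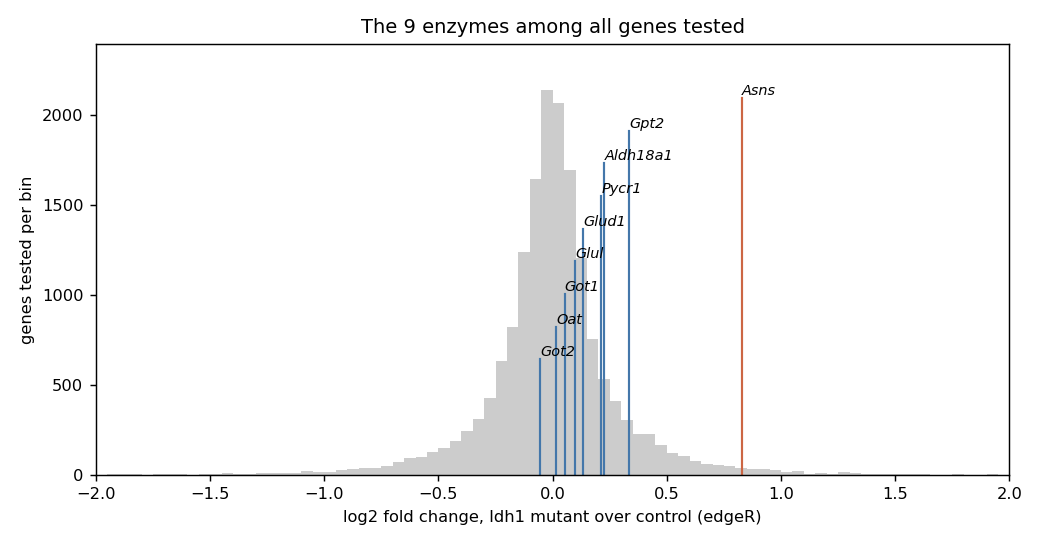
Number of genes tested in each bin of log2 fold change (grey bars, horizontal axis shown from -2 to 2) with a line at the value of each of the 9 enzymes, whose heights only separate the names. Asns (orange) lies at 0.83 in the right tail, Gpt2, Aldh18a1 and Pycr1 lie between 0.21 and 0.34, and the remaining 5 lie between -0.06 and 0.13, inside the bulk of the genes.

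The proline synthesis genes were at a moderate to high level in both groups. Pycr1 (ENSMUSG00000025140, chromosome 11 from 120635712 to 120643769, reverse strand) encodes a mitochondrial reductase of the last step of proline synthesis. It had 82.6, 76.5 and 75.7 CPM across controls against 92.5, 92.3 and 87.2 CPM across mutants. All 3 mutants lay above all 3 controls, and the libraries of each group were close together, with a coefficient of variation of 4.81% in controls and 3.28% in mutants. The log2 fold change came to 0.21 (SE 0.07, 95% interval 0.05 to 0.38), with an unadjusted p of 0.0180 that did not pass the correction (adjusted p = 0.456, edgeR).
Aldh18a1 (ENSMUSG00000025007, chromosome 19 from 40550257 to 40588463, reverse strand) encodes the enzyme that turns glutamate into the first proline intermediate. It measured 130, 108 and 133 CPM across controls against 131, 153 and 149 CPM across mutants. Mutant 1 lay among the controls, so that the groups overlapped. The log2 fold change was 0.23 (95% interval -0.000955 to 0.45, adjusted p = 0.580, edgeR).
Oat (ENSMUSG00000030934, chromosome 7 from 132557475 to 132576398, reverse strand), ornithine aminotransferase, had 229, 230 and 202 CPM across controls against 196, 236 and 235 CPM across mutants. The highest and the lowest library were both mutants. Its log2 fold change was 0.01, and the 95% interval of -0.21 to 0.24 leaves room for at most a 1.18-fold higher or a 0.866-fold level in the mutants (adjusted p = 0.985, edgeR). The ratio of Oat to Aldh18a1 per exon length was 3.33, 4.01 and 2.88 across controls against 2.82, 2.91 and 2.98 across mutants, with overlapping ranges.

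Glutamine synthesis and glutamate deamination were described by 1 gene each. Glul (ENSMUSG00000026473, chromosome 1 from 153899944 to 153909723, forward strand) had 117, 125 and 138 CPM across controls against 133, 146 and 128 CPM across mutants. The groups overlapped, and the log2 fold change was 0.10 (95% interval -0.10 to 0.30, adjusted p = 0.829, edgeR). Exons of Teddm2 on the opposite strand and of Mir8114 overlap those of Glul, and the authors counted without regard to strand, so that reads in the shared stretches may have been dropped and the Glul count is uncertain to that extent.
Glud1 (ENSMUSG00000021794, chromosome 14 from 34310727 to 34345144, forward strand), the mitochondrial glutamate dehydrogenase gene, had 151, 156 and 154 CPM across controls against 159, 164 and 182 CPM across mutants. Every mutant lay above every control, but the gap from 156 to 159 CPM was narrow, and mutant 3 was the highest library. The log2 fold change was 0.13 (95% interval -0.05 to 0.31, adjusted p = 0.712, edgeR), and without mutant 3 it was 0.07.

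Got1 and Got2 had fold changes near 0, and that of Gpt2 was higher, with a like spread between libraries. Got1 (ENSMUSG00000025190, chromosome 19 from 43499752 to 43524605, reverse strand) is the cytosolic aspartate transaminase gene and had 27.6, 26.8 and 36.1 CPM across controls against 34.2, 34.4 and 25.3 CPM across mutants. Got2 (ENSMUSG00000031672, chromosome 8 from 95864134 to 95888547, reverse strand) encodes the mitochondrial form and had 89.8, 80.2 and 109 CPM across controls against 95.6, 94.6 and 77.9 CPM across mutants. In both genes control 3 was the highest and mutant 3 the lowest library, so that the groups overlapped. The summed skeletal muscle markers had the same highest and lowest libraries, at 17181 CPM in control 3 and 11076 CPM in mutant 3. Of the single muscle markers, Acta1 and Ckm did so, and Myh3, Myh8 and Myog did not. The part of muscle content in these levels was not tested. The log2 fold changes were 0.05 for Got1 (95% interval -0.28 to 0.39, adjusted p = 0.960, edgeR) and -0.06 for Got2 (95% interval -0.33 to 0.22, adjusted p = 0.952, edgeR). The ratio of Got2 to Got1 per exon length was 3.03 ± 0.143 (SD, n = 3) in the controls and 2.82 ± 0.173 (SD, n = 3) in the mutants. Exons of Gm45760 on the opposite strand overlap Got2, and a processed copy, Got2-ps1, had 0 to 6 counts.
Gpt2 (ENSMUSG00000031700, chromosome 8 from 85492576 to 85527560, forward strand), the mitochondrial alanine transaminase gene, had 25.0, 21.3 and 29.2 CPM across controls against 34.9, 35.5 and 25.0 CPM across mutants. Mutants 1 and 2 lay above every control, while mutant 3 was at the level of control 1. Mutant 3 was also the lowest library in the summed skeletal muscle markers, whose part in the Gpt2 levels was not tested. The log2 fold change came to 0.34 (SE 0.15, 95% interval -0.0097 to 0.68, adjusted p = 0.597, edgeR), the second highest of the 9. Without mutant 3 it was 0.48, and the adjusted p of 0.435 from edgeR did not pass the threshold either. The interval leaves room for a level up to 1.605 times that of the controls.

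Levels can be set against each other only per length of exon, as CPM per kilobase (RPKM). On this scale the controls were ordered Oat at 102 ± 7.32 RPKM (SD, n = 3), Glul at 38.1 ± 3.15, Glud1 at 37.6 ± 0.613, Got2 at 35.9 ± 5.61, Aldh18a1 at 30.3 ± 3.32, Pycr1 at 19.9 ± 0.956, Got1 at 11.9 ± 2.03, Asns at 11.1 ± 1.59 and Gpt2 at 4.46 ± 0.699. Oat stood clear of all the rest and Gpt2 clear below them, while neighbours in the order from Glul to Aldh18a1 had overlapping ranges. In the controls Asns and Got1 overlapped, at 9.39 to 12.6 and 10.6 to 14.2 RPKM. In the mutants Asns was at 18.1 to 22.4 RPKM, above the 9.97 to 13.6 RPKM of Got1, and its range overlapped that of Pycr1 at 22.2 to 23.5 RPKM. Over the 6 libraries Asns also had the widest span of the 9, with 2.38 times between its highest and lowest library, against 1.202 for Glud1 and 1.67 for Gpt2.

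Of 38 further genes of the same pathways, 34 passed the expression filter. In the reported edgeR fit 0 of them passed the threshold, beside 32 of all 16813 genes tested (0.190%). DESeq2 called 1 of them, Psat1, beside 193 of all genes tested. An unadjusted p under 0.05 was seen in 6 of the 34, beside 8.64% of all genes tested. Their median log2 fold change was 0.03, with 21 above 0 and 13 below, beside 8293 above and 8520 below over all genes tested. The groups did not overlap in 7 of the 34, 3 higher and 4 lower in the mutants, against 14.4% of all genes tested.
Among the genes that break down glutamine and asparagine, 0 of 4 passed the threshold and 3 had an unadjusted p under 0.05. Aspg, an asparaginase gene, had few reads, with 11, 18 and 3 counts across controls against 32, 21 and 25 across mutants, and its log2 fold change came to 1.46 (SE 0.50, adjusted p = 0.444, edgeR). Asrgl1, which also encodes an asparaginase, was at 17.8 to 19.5 CPM in the controls and at 15.4 to 16.6 CPM in the mutants (log2 fold change -0.25, adjusted p = 0.485, edgeR). The libraries of each of these genes did not overlap between the groups, and their fold changes were opposite in sign. Gls2, a glutaminase gene, was at 3.65 to 4.47 CPM in the controls and 2.48 to 3.33 CPM in the mutants (log2 fold change -0.54, adjusted p = 0.501, edgeR), and its exons overlap those of Spryd4.
The 7 tested transaminases outside the 9 enzymes included Psat1, which takes nitrogen from glutamate in serine synthesis and had the lowest p of the 34. Psat1 had 68.2, 50.9 and 54.9 CPM across controls against 76.3, 92.9 and 93.4 CPM across mutants. Every mutant was above every control, and the log2 fold change came to 0.59 (SE 0.12, 95% interval 0.32 to 0.87, adjusted p = 0.141, edgeR). DESeq2 placed it past the threshold (0.59, adjusted p = 0.00236), and so did edgeR without the low-count filter (adjusted p = 0.000812). Over all genes DESeq2 called 193 and edgeR without that filter 259, against 32 in the reported fit. Psat1 was past the threshold in 3 of the 8 other settings. With single libraries left out it was past it in 0 of the 6 fits, at an adjusted p of 0.0824 to 0.494 from edgeR. Abat, the GABA transaminase gene, differed by -0.34 on the log2 scale (adjusted p = 0.513, edgeR) and Bcat1, a branched-chain transaminase gene, by 0.24 (adjusted p = 0.571, edgeR), both with overlapping groups. Gpt, the cytosolic counterpart of Gpt2, had a mean of 5.52 CPM in controls and 5.99 CPM in mutants.
In the list of 9 genes of proline breakdown, proline reduction and ornithine and arginine metabolism, 7 were tested, 0 passed the threshold and none had an unadjusted p under 0.05. Ass1, which joins citrulline to aspartate, had the lowest p (log2 fold change 0.38, adjusted p = 0.699, edgeR), followed by the proline dehydrogenase gene Prodh (0.22, adjusted p = 0.829) and the proline reductase gene Pycr3 (0.09, adjusted p = 0.898).
The 10 enzymes that use the amide group of glutamine in nucleotide, amino sugar and related synthesis had log2 fold changes between -0.13 and 0.16, with 5 above 0 and 5 below. Gfpt1, of the hexosamine pathway, had the lowest p of them (-0.13, adjusted p = 0.698, edgeR), before the purine synthesis gene Pfas (0.16, adjusted p = 0.776) and the pyrimidine synthesis gene Cad (0.14, adjusted p = 0.818). The 6 genes of the malate-aspartate shuttle, in which Got1 and Got2 take part, lay between -0.18 (Slc25a13, adjusted p = 0.764, edgeR) and 0.08 (Slc25a12, adjusted p = 0.898), with Mdh2 at 0.05. None of these 16 genes had an unadjusted p under 0.05.

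**Figure D4:**
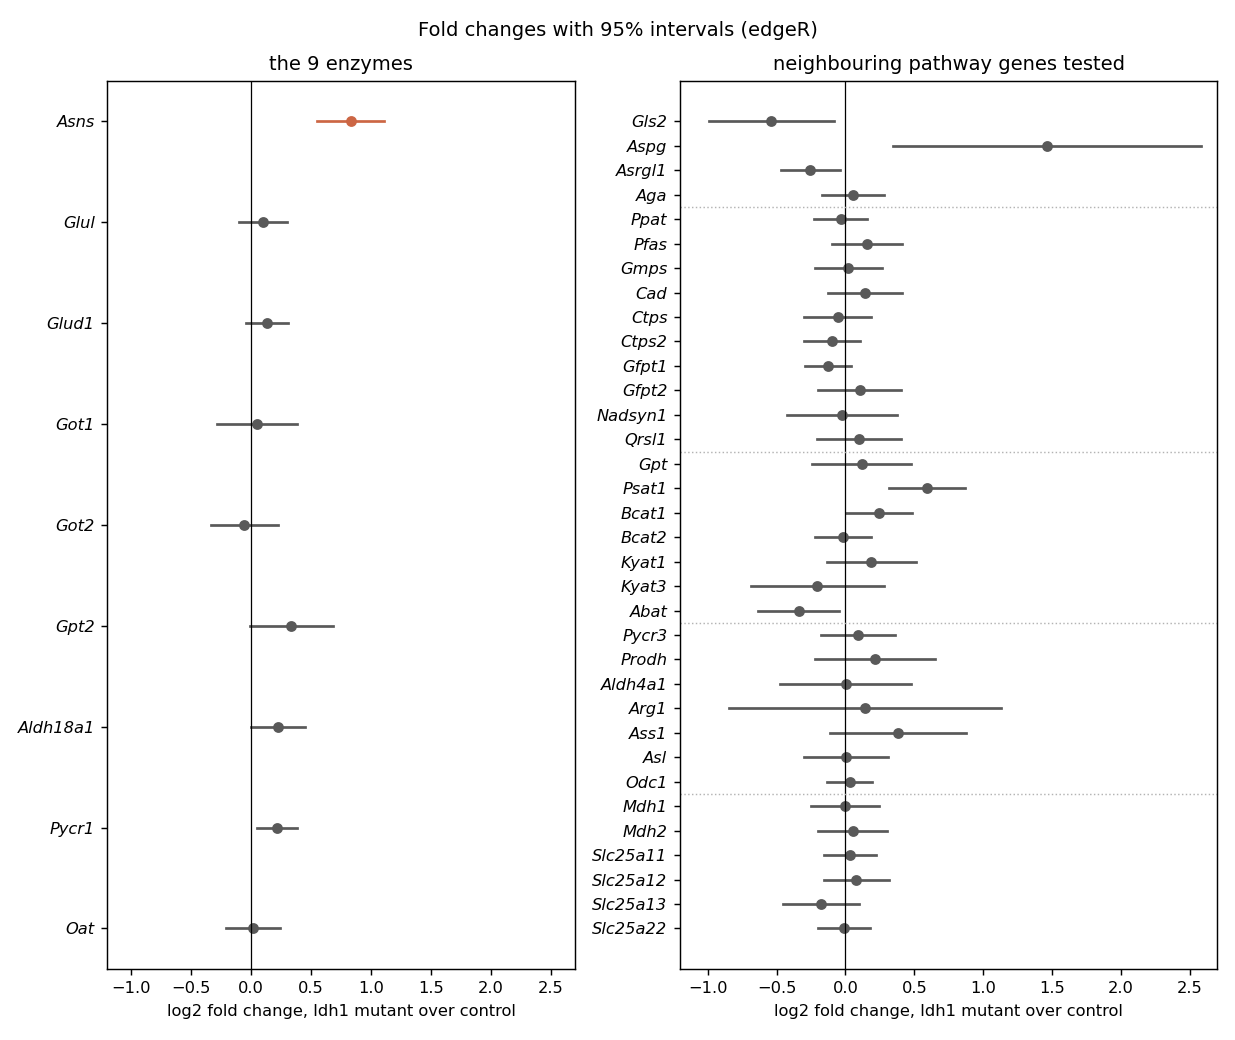
Log2 fold change of mutants over controls with its 95% interval from edgeR for the 9 enzymes (left) and the 34 tested genes of neighbouring pathways (right, dotted lines between lists in the order breakdown, amide users, transaminases, proline and ornithine, shuttle). Asns (orange) is the gene past the adjusted threshold, Psat1 at 0.59 has the next lowest p, and the widest interval above 0, from 0.35 to 2.58, is that of Aspg, which had 3 to 32 counts.

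The genes whose levels followed Asns most closely over the 6 libraries, by Pearson's r of log2 CPM, were Slc7a11 (r = 0.994), Degs2 (0.990), Trib3 (0.990), Gm21989 (0.988) and Abi3 (0.987). Slc7a11 encodes the cystine and glutamate exchanger of the plasma membrane, and Trib3 a pseudokinase known as a target of Atf4. Both were at a low level, at means of 0.384 and 1.11 CPM for Slc7a11 and of 1.83 and 5.45 CPM for Trib3 in controls and mutants. Their log2 fold changes were 1.52 (adjusted p = 0.166, edgeR) and 1.58 (adjusted p = 0.0600, edgeR). Degs2, Gm21989 and Abi3 share exon sequence with other genes, so that their counts are uncertain. All 5 separated the groups, as Asns did, and since this likeness contains the difference between the groups it is a description of these 6 points and carries no test. On deviations from the group means alone, the closest genes were RP23-106G24.2, Gm15411 and Gm10033, with group means of 0.738 to 1.63 CPM and with overlapping groups.
Among the 9 enzymes, Pycr1 was the most like Asns in this measure (r = 0.946 over the 6 libraries), followed by Aldh18a1 (0.851) and Gpt2 (0.741), while Oat (0.111) and Got2 (0.0262) were the least like it. Within groups the values were 0.645 for Pycr1, 0.780 for Aldh18a1 and 0.588 for Gpt2. They were 0.496 for Got2, 0.377 for Got1, 0.241 for Glul, 0.177 for Oat and -0.394 for Glud1, so that the order differed from that over the 6 libraries. The lowest mutant was mutant 3 in Asns and Pycr1 and mutant 1 in Aldh18a1.
Against the promoter sequences above, the 3 genes with the TGATGNAA letters had log2 fold changes of 0.83 (Asns), 0.21 (Pycr1) and 0.05 (Got1). Of the tested genes whose symbol had a RefSeq window, 313 held the letters, with a median log2 fold change of 0.03. Among them 1 gene was past the threshold, Asns itself. The other 11155 did not hold the letters, with a median of -0.0040 and 22 genes past it. Over all genes tested 32 of 16813 (0.190%) were past it, not all of them with a matched window. The motif was chosen after the sequences of the 9 had been seen, so that these counts carry no test.

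Markers of other tissues also differed between the groups. The 5 tendon markers summed to 2990 to 3285 CPM in the controls and 2002 to 2337 CPM in the mutants, with 4 of the 5 lower, 1 of them past the threshold (Tnmd, log2 fold change -0.81, adjusted p = 0.0374, edgeR). The 3 erythroid markers summed to 455 to 1311 CPM in the controls and 238 to 352 CPM in the mutants, all 3 lower and 0 past the threshold. No tendon or erythroid marker was at 0 in any library. All 5 osteoblast markers had log2 fold changes above 0, with a median of 0.49 and 0 past the threshold. Their summed level overlapped between the groups, and it was nearly all Col1a1, at a mean of 38100 CPM in controls and 38365 CPM in mutants. Dmp1, a marker of late osteoblasts and osteocytes, had 82.8, 21.4 and 6.75 CPM across controls against 84.4, 198 and 90.6 CPM across mutants, with every mutant above every control (log2 fold change 1.75, unadjusted p = 0.0310, adjusted p = 0.522, edgeR). Ibsp, a bone matrix gene, had 973, 332 and 120 CPM across controls against 1141, 1474 and 950 CPM across mutants, with overlapping groups (1.32, unadjusted p = 0.0430, adjusted p = 0.557, edgeR). In both genes control 3 was the lowest and mutant 2 the highest library. The summed levels of the chondrocyte, hypertrophic, muscle, endothelial, macrophage and adipocyte lists overlapped between the groups, and the adipocyte markers Adipoq and Plin1 were at 0 in some libraries. Among their single genes, every mutant was above every control in Kdr (endothelium) and Csf1r (macrophage). Their log2 fold changes were 0.25 (unadjusted p = 0.00585, adjusted p = 0.324, edgeR) and 0.24 (unadjusted p = 0.0236, adjusted p = 0.487, edgeR). The other endothelial and macrophage markers overlapped between the groups. The part of these marker differences in the Asns difference was not tested.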

How the data were processed

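Bulk RNA sequencing of 3 control and 3 Idh1 mutant growth plate samples was analysed, with groups and replicate numbers taken from the sample labels. The study's methods name the controls as littermates of the mutants, but the labels do not give litters or pooling. The reported fit therefore left litter out, and its p-values measure the spread between these samples. Per the study's methods and the submitters' processing notes, the authors selected poly(A) RNA, trimmed reads with Trim Galore 0.6.4, mapped them to GRCm38 with STAR 2.6.1d and counted them over exons with featureCounts 1.6.4. The deposited values are raw whole-number read counts, and the file headers show that strand was ignored although the kit marks it. By default featureCounts then drops reads with several mapping places or genes, which can lower genes with near-identical copies. No column of measurements was left out.

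From the deposited counts, edgeR 4.0.16 in R 4.3.3 was run with filterByExpr (minimum count 10, minimum total 15), TMM factors and the quasi-likelihood test over 16813 of 46078 genes, with Benjamini-Hochberg adjustment and a threshold of 0.05. Standard errors and 95% intervals were derived from the F statistic. CPM used the full library totals and TMM factors, and 3 counts correspond to 0.0978 to 0.127 CPM. The alternatives were DESeq2 1.42.0, limma-voom (limma 3.58.1), the replicate number as a block, other size factors, other filters and each library left out. The functions were tested on simulated data. Libraries of a group differed by more than sampling noise (chi-square over its degrees of freedom, 11.6 to 45.1). Figures were drawn with matplotlib 3.10.9.

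The 9 enzymes, the 5 neighbouring lists and the marker lists were chosen with earlier results of these data known, and the motifs after the sequences had been seen. Named were all 9 enzymes, up to 3 genes of each list with the lowest p, Idh1, markers that moved with a result, and the genes most like the enzyme with the lowest p, with an offset of 0.5 CPM before the logarithm. Gpt was named outside this rule, as the counterpart of Gpt2. A few genes of these pathways are not reported here. Exon overlaps came from GENCODE M21 on GRCm38, and promoter windows from RefSeq. The study's methods used DESeq2 with a litter term, which was not used here.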

Additional observations from a re-analysis of the deposited data

How the results depend on the processing

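For the 9 enzymes, 70 of 72 values under other settings had the same direction and stayed on the same side of the threshold, and 2 no longer passed it, both for Asns (limma-voom, 0.83 with adjusted p 0.05003, and edgeR with the replicate number as a block, 0.83 with adjusted p 0.193). With single libraries left out, 39 of 54 were the same, 6 (all Asns) no longer passed the threshold and 9 reversed. The values then ranged from -0.0217 to 0.20 for Got1, from -0.15 to 0.0753 for Got2, from -0.0411 to 0.10 for Oat and from 0.73 to 0.93 for Asns, whose fits had fewer samples. The number of the 9 past the threshold was 1 in the reported fit, 0 with limma-voom, 0 with the block in edgeR and 0 to 0 with libraries left out. Of the 34 neighbouring genes 0 passed it in the reported fit, 1 with DESeq2, 1 with DESeq2 and the block and 1 without the low-count filter, Psat1 each time, and 0 to 0 with libraries left out. Over all genes the reported fit called 32, with 28.1% higher in the mutants. DESeq2 called 193, DESeq2 with the block 96, limma-voom 19, edgeR with the block 3 (66.7% higher) and edgeR without the low-count filter 259, and leaving out a library gave 3 to 17. Same-numbered samples did not deviate together (r = -0.16, -0.0068 and -0.15), and the labels do not say whether a number marks a litter, so that the numbers were not treated as pairs. What caused these changes was not tested. Aspg (3 to 32 counts), Slc7a11 (9 to 32) and Gm21989 (7 to 22) were among the named genes with the fewest reads, where counting error is widest.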
